A study of Homo sapiens with 6 samples.

Results

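The nuclear RNA polymerases and their mitochondrial counterpart were followed at the level of subunit mRNA in SH-SY5Y cells, a human neuroblastoma line that the labels call neuronal progenitor. Members were the protein-coding genes whose GENCODE symbol begins with POLR1, POLR2 or POLR3 and a letter, plus *POLRMT*, which gave 31 genes of the 67060 in the count table. Of these, 29 had enough counts to be tested, out of 24500 tested genes, of which 13746 were protein-coding. The copies *POLR2J2* and *POLR2J3* and the associated gene *POLR2M* matched the same pattern, filled 4 identifiers and were kept apart. The series compared 3 libraries from cells given an adenovirus expressing GFP from the CMV promoter (Ad CMV GFP, replicates 1, 3 and 4) with 3 libraries from cells given the same kind of virus expressing Flag-tagged *Esrrg* (Ad CMV 3xFlag-*Esrrg*, replicates 2, 3 and 4). Cells received 0.5 µl of virus and RNA was collected 24 h later, from total RNA depleted of ribosomal RNA. Every group was thus a virus-treated group of 1 line, the insert was driven by a viral promoter, and no label says whether replicates came from separate cultures. *Esrrg* encodes ERRγ, an orphan nuclear receptor that binds DNA and activates genes of energy metabolism.

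RNA polymerase I (Pol I) makes the precursor of the large ribosomal RNAs, Pol II makes mRNAs and many noncoding RNAs, and Pol III makes tRNAs and other short RNAs. Each enzyme has a catalytic core formed by its largest and second-largest subunits, an assembly platform on which the core is built, and a protruding stalk. Some small subunits are common to all of the nuclear enzymes, others are used by Pol I and Pol III, and *POLRMT* is a single polypeptide, unrelated to them in structure, that transcribes mitochondrial DNA.

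Upstream sequences were available for 23 of the 31 subunit genes in RefSeq (GRCh38.p14, a window spanning each start site), and were searched on both strands. None of the 23 held the extended ERR element TCAAGGTCA, which 0.432% of 27305 genes held, or its core AAGGTCA, which 4.80% held. The shorter AGGTCA, which is contained in both, was present for *POLR2B*, *POLR2D* and *POLR3B*, against 16.5% of all genes. The palindrome bound by NRF1, an activator of nuclear genes for mitochondria, was present for 4 of 23 (17.4%) against 1.52% of all genes, and the E-box CACGTG also for 4 of 23, against 8.77%. The shares over all genes were not limited to protein-coding genes or matched for GC content. The stretches with the NRF1 palindrome are shown because *POLRMT* and subunits common to the nuclear enzymes are among them. Each runs 5′ to 3′, with the letters of the palindrome in capitals. The stretches of *POLRMT*, *POLR2H* and *POLR3B* run up to the last base before a RefSeq start site, and that of *POLR2F* ends a few bases earlier.
*POLRMT*, chr19:633538-633621, minus strand: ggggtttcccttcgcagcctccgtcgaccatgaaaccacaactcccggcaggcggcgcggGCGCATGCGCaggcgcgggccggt
*POLR2F*, chr22:37953564-37953693, plus strand: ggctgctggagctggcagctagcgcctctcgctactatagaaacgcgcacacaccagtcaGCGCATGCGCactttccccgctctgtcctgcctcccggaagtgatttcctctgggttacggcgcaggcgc
*POLR2H*, chr3:184363290-184363360, plus strand: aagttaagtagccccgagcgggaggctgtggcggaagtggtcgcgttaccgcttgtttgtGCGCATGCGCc
*POLR3B*, chr12:106357993-106358109, plus strand: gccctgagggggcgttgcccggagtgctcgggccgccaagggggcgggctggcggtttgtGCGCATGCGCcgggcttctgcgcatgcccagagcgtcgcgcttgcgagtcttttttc
The palindrome began 24 bases before the start for *POLRMT*, 75 bases for *POLR2F*, 11 bases for *POLR2H* and 57 bases for *POLR3B*. For *POLR2H* and *POLR3B* the start used was the downstream one of those that RefSeq lists. A match of letters is a description and not evidence of binding, and a missing match says only that these letters are not in the window searched.

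Reads counted on genes numbered 24969759 to 29700980 per Ad CMV GFP library and 26513620 to 40859666 per Ad CMV 3xFlag-*Esrrg* library. Reads assigned to no gene (the outside-gene share) made up 51.3 to 52.2% of all entries with Ad CMV GFP, and 46.6, 31.6 and 29.5% in replicates 2, 3 and 4 with Ad CMV 3xFlag-*Esrrg*, so that replicate 2 stood between the groups. *ESRRG* read 83.6, 90.4 and 86.9 CPM (counts scaled to equal library size by the TMM factors) with Ad CMV GFP and 570, 772 and 778 CPM with Ad CMV 3xFlag-*Esrrg*, a log2 fold change of 3.02 ± 0.14 (SE). Reads from the viral insert and from the cell's own gene were not told apart. In the study's methods the insert is the *Esrrg* sequence that its mouse probes also target, while reads were aligned to the human genome. How many insert reads were counted on the human gene was not tested. Of 14 markers of adrenergic neuroblastoma, 12 were tested and *TH* and *CHGA* had 3 counts or fewer in every library. The summed level of this list was 901 to 961 CPM with Ad CMV GFP and 686 to 903 CPM with Ad CMV 3xFlag-*Esrrg*. For 5 markers each, the summed level was at most 2.28 CPM for astrocytes, 1.31 CPM for immune cells and 2.55 CPM for endothelium in any library, with *AQP4*, *SLC1A3*, *AIF1* and *CDH5* at 3 counts or fewer. Fibroblast markers summed to 3259 to 3386 CPM against 2929 to 3184 CPM, and epithelial markers to 35.5 to 42.0 CPM against 60.4 to 94.8 CPM, with *CDH1* at 3 counts or fewer. By edgeR's test, 3 of the 12 adrenergic markers were called higher and 4 lower (median log2 fold change -0.26). Of the 5 fibroblast markers, 3 were lower (median -0.76). Of 4 tested epithelial markers, 1 was higher, as was the 1 endothelial marker that was tested. Over protein-coding genes, 25.9% were called higher and 12.4% lower. The part of these markers in the subunit differences was not tested. In bulk RNA, fewer cells of a type and less RNA per cell cannot be told apart.

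Subunit mRNAs were higher after Ad CMV 3xFlag-*Esrrg* in most parts of the nuclear enzymes and in the mitochondrial one. By edgeR's quasi-likelihood test (adjusted p below 0.05 over all tested genes and at least 1.5-fold), 19 of 29 tested subunits rose, 0 fell and 10 were not called. The same rule called 17.3% of all tested genes and 25.9% of protein-coding genes higher, and 16.8% and 12.4% lower. No subunit was called lower by DESeq2 either, and at an unadjusted p below 0.05 edgeR counted 2 lower and DESeq2 0. The median log2 fold change of the subunits was 0.88, against -0.10 for all tested genes and 0.12 for protein-coding genes. The groups did not overlap for 21 subunits that were higher and 2 that were lower, where 27.8% of all tested genes and 41.9% of protein-coding genes were higher without overlap, and 30.3% and 28.4% lower. With no fold cutoff 22 subunits passed, *POLR1D*, *POLR2B* and *POLR3B* in addition to the 19, where 24.3% of all tested genes and 37.6% of protein-coding genes were higher and 23.5% and 22.4% lower.

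**Figure D1:**
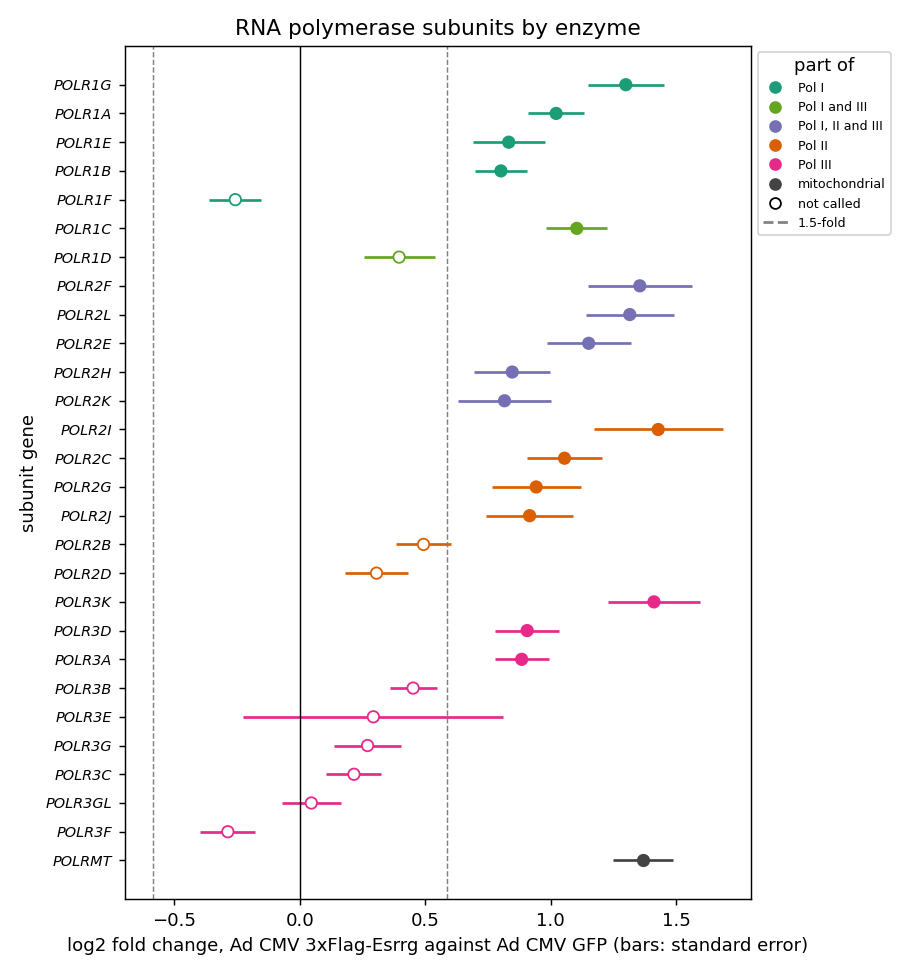
Log2 fold change (horizontal axis, Ad CMV 3xFlag-*Esrrg* against Ad CMV GFP, with its standard error) of 28 of the 29 tested subunits, coloured by the enzyme they belong to, with filled points for those that were called and dashed lines at 1.5-fold. Values run from -0.29 for *POLR3F* to 1.43 for *POLR2I*, and all 5 subunits common to Pol I, II and III are filled.

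The spread within the Ad CMV 3xFlag-*Esrrg* group followed the libraries. Relative to the mean of the Ad CMV GFP libraries, the median log2 ratio over the subunits was 0.49 in replicate 2, 0.97 in replicate 3 and 1.07 in replicate 4. The library with the largest outside-gene share had the lowest median. When that share entered the fit as a covariate, 5 subunits were called higher, *POLR1A*, *POLR1G*, *POLR1C*, *POLR3K* and *POLRMT*, the median was 0.44, and 7.24% of all tested genes were called higher. Every Ad CMV 3xFlag-*Esrrg* library had a lower share than every Ad CMV GFP library. The share thus went with the virus, and a fit with both separates them only by the spread of the share within each group. Whether the share followed from the virus was not tested. With library size as the only scaling, which moved the median of all tested genes from -0.10 to -0.42, 12 subunits were called higher and 1, *POLR3F*, lower, against 8.98% of all tested genes higher. *POLR1B*, *POLR1E*, *POLR2H*, *POLR2K*, *POLR2J*, *POLR3A* and *POLR3D* were no longer called under that scaling. Without replicate 2 of the Ad CMV 3xFlag-*Esrrg* group 22 were called higher. The part of library composition in the differences was not tested.

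**Figure D2:**
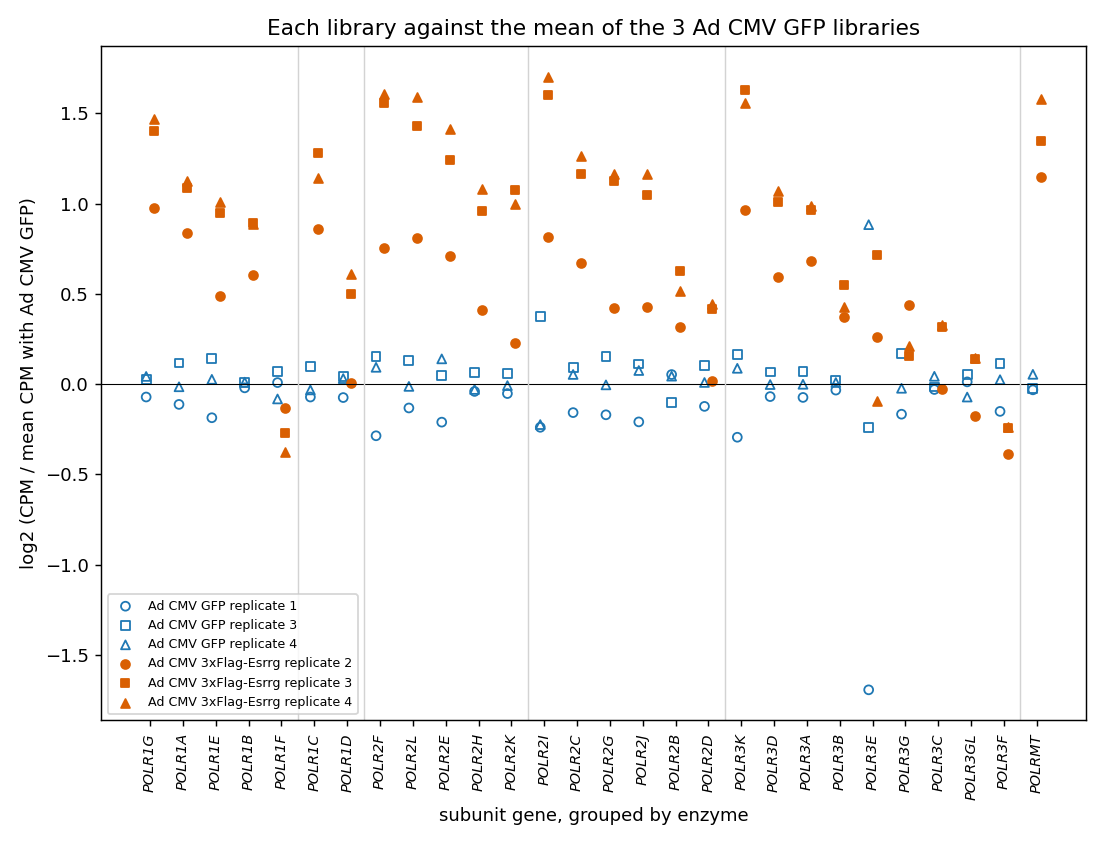
Log2 of each library's CPM over the mean of the 3 Ad CMV GFP libraries (vertical axis) for 28 of the 29 tested subunits, grouped by enzyme, with open symbols for Ad CMV GFP and filled ones for Ad CMV 3xFlag-*Esrrg*. Filled circles (replicate 2, median 0.49) lie mostly under filled squares and triangles (replicates 3 and 4, medians 0.97 and 1.07).

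Among the subunits that belong to Pol I alone, 4 of 5 tested rose, where 25.9% of protein-coding genes were called higher. The median log2 fold change of these subunits was 0.83. *POLR1A* (chromosome 2, 86020216 to 86106155), the largest catalytic subunit, read 123, 144 and 132 CPM with Ad CMV GFP and 238, 283 and 290 CPM with Ad CMV 3xFlag-*Esrrg*. All libraries of the second group were above all of the first, and the log2 fold change was 1.02 ± 0.11 (adjusted p = 8.5e-05). *POLR1B*, the second-largest subunit, rose from 108 ± 1.31 to 188 ± 20.7 CPM (SD, n = 3), a log2 fold change of 0.80 ± 0.10. *POLR1E* and *POLR1G* encode PAF53 and PAF49, which pair with each other on the enzyme. *POLR1G* was at 4.72, 5.04 and 5.11 CPM against 9.76, 13.1 and 13.7 CPM, a log2 fold change of 1.30 ± 0.15, while *POLR1E* rose by 0.83 ± 0.14. Exon bases of *POLR1G* were overlapped by a gene on the opposite strand for 49.8% of their length, and the strand setting of the counting is not given in the sources used here, so reads of such pairs cannot be told apart. The stalk subunit *POLR1F* went the other way without passing the test. It read 22.5, 23.4 and 21.1 CPM with Ad CMV GFP and 20.4, 18.5 and 17.2 CPM with Ad CMV 3xFlag-*Esrrg*, so that the groups did not overlap, at a log2 fold change of -0.26 ± 0.10 (adjusted p = 0.064). Corrected for GC content and length its value was 0.03. With the outside-gene share in the fit, 2 of the 5 were called, where 7.24% of all tested genes were called higher. *POLR1H*, a small zinc-binding subunit on chromosome 6 (30058899 to 30064909), was listed at 0 counts in all 6 libraries. Of its 31-base words, 89.8% also occur in alternate contigs of the assembly, as for 693 protein-coding genes with at least 80% of words there, of which 79.2% had 3 counts or fewer in every library, against 20.8% of the others.

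*POLR1C* and *POLR1D* form the assembly platform used by both Pol I and Pol III. *POLR1C* read 16.1, 18.1 and 16.6 CPM with Ad CMV GFP and 30.7, 41.1 and 37.4 CPM with Ad CMV 3xFlag-*Esrrg*, at a log2 fold change of 1.10 ± 0.12 (adjusted p = 8.6e-05). Its partner *POLR1D* read 78.3, 84.7 and 84.2 CPM against 82.7, 117 and 126 CPM. Replicate 2 of the second group lay within the first group, and the log2 fold change of 0.40 ± 0.14 (adjusted p = 0.040) was under 1.5-fold. The value for *POLR1D* was -0.18 with the outside-gene share in the fit, whereas it was called higher after correction for GC content and length (0.60) and without replicate 2 (0.66).

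All 5 subunits shared by Pol I, II and III rose, where 25.9% of protein-coding genes were called higher. Their log2 fold changes ran from 0.82 to 1.35, with a median of 1.15. *POLR2L*, a small zinc-binding subunit, read 47.0, 56.4 and 51.1 CPM with Ad CMV GFP and 90.4, 139 and 155 CPM with Ad CMV 3xFlag-*Esrrg* (log2 fold change 1.31 ± 0.18, adjusted p = 0.00022). *POLR2F*, one of the genes with the NRF1 palindrome, read 11.8, 16.1 and 15.4 CPM against 24.4, 42.5 and 43.9 CPM, at 1.35 ± 0.21. *POLR2E* rose from 51.5 ± 6.29 to 114 ± 27.3 CPM (SD, n = 3), at 1.15 ± 0.17. In each of these genes replicate 2 was the lowest of the second group and still above every Ad CMV GFP library. *POLR2H*, which also holds the palindrome, was at 45.3, 48.8 and 45.7 CPM against 62.0, 90.6 and 98.7 CPM, at 0.85 ± 0.15, and was no longer called after correction for GC content and length (0.54) or with library size as the only scaling (0.51). *POLR2K*, the other zinc-binding subunit of this group, had the smallest change, from 30.5, 32.9 and 31.4 CPM to 37.1, 66.7 and 63.1 CPM (0.82 ± 0.18, adjusted p = 0.0043). Like *POLR2H*, it was not called with library size as the only scaling (0.47). With the outside-gene share in the fit, none of the 5 was called, where 7.24% of all tested genes were called higher, and *POLR2K* was at -0.01.

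For Pol II alone, 4 of 6 tested subunits rose, against 25.9% of protein-coding genes called higher, and the median log2 fold change was 0.93. *POLR2A* (ENSG00000181222, chromosome 17, 7484366 to 7514616), the largest subunit, whose C-terminal repeats are phosphorylated during transcription, was listed at 1, 2 and 1 counts with Ad CMV GFP and 0, 3 and 3 counts with Ad CMV 3xFlag-*Esrrg* and was not tested. Every cell uses this gene, 0% of its words occur in alternate contigs, and the cause of the low count was not tested. *POLR2B*, the second-largest subunit, had the highest CPM of the subunits with Ad CMV GFP, 186, 167 and 185 CPM against 223, 277 and 257 CPM. Its groups were separate, but the log2 fold change of 0.49 ± 0.11 (adjusted p = 0.0040) was under 1.5-fold. It was called higher by DESeq2 (0.59), after correction for GC content and length (0.70) and without replicate 2 of the second group (0.68). The platform subunits moved further. *POLR2C* rose from 52.4 ± 4.74 to 109 ± 22.5 CPM (SD, n = 3; log2 fold change 1.05 ± 0.15), and *POLR2J*, of whose words 28.2% occur at another place on the chromosomes, rose by 0.92 ± 0.17. The stalk pair differed in the calls. *POLR2G* was at 39.8, 49.9 and 44.7 CPM against 59.9, 97.8 and 100 CPM (0.94 ± 0.18), whereas *POLR2D* was at 52.9, 61.9 and 58.0 CPM against 58.4, 76.8 and 78.2 CPM (0.31 ± 0.12, adjusted p = 0.064). The difference between these changes was not tested. *POLR2I*, a zinc-binding subunit that helps in transcript cleavage, had the largest value of all subunits, from 2.09, 3.20 and 2.12 CPM to 4.34, 7.49 and 8.04 CPM (1.43 ± 0.26, adjusted p = 0.0012). Opposite-strand genes overlapped 77.2% of its exon bases. With the outside-gene share in the fit, 0 of the 6 were called, where 7.24% of all tested genes were called higher.

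Pol III had the most mixed set, with 4 of 10 tested subunits higher, against 25.9% of protein-coding genes called higher, and 6 not called. The median log2 fold change of the 10 was 0.37. *POLR3A*, the largest subunit, read 80.2, 88.6 and 84.3 CPM with Ad CMV GFP and 135, 165 and 167 CPM with Ad CMV 3xFlag-*Esrrg* (0.88 ± 0.11, adjusted p = 0.00014). *POLR3B*, the second-largest subunit, also holds the NRF1 palindrome. It was higher in every library but under 1.5-fold and not called, at 21.7, 22.6 and 22.4 CPM against 28.8, 32.5 and 30.0 CPM (0.45 ± 0.09, adjusted p = 0.0027). *POLR3B* was called after correction for GC content and length (0.60) and without replicate 2 (0.60). The zinc-binding subunit *POLR3K*, which acts at termination, rose most, from 6.56, 9.02 and 8.55 CPM to 15.7, 24.8 and 23.7 CPM (1.41 ± 0.18, adjusted p = 0.00020). It was the one of the 10 still called with the outside-gene share in the fit, where 7.24% of all tested genes were called higher. In the pair that resembles the Pol II factor TFIIF, *POLR3D* rose from 90.1 ± 4.25 to 169 ± 28.9 CPM (SD, n = 3; 0.91 ± 0.13). Its partner *POLR3E* (chromosome 16, 22297375 to 22335101) was listed at 3, 9 and 21 counts against 11, 19 and 11 counts, which were too few to show a change (0.29 ± 0.52, adjusted p = 0.66). As with *POLR2A*, 0% of its words occur in alternate contigs and the cause of the low count was not tested.

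No gene of the initiation trimer of Pol III was called by edgeR with TMM scaling or by DESeq2, and at an unadjusted p below 0.05 edgeR counted 0 higher and 1 lower and DESeq2 2 higher and 0 lower. *POLR3F* read 16.3, 19.6 and 18.4 CPM with Ad CMV GFP and 13.9, 15.3 and 15.3 CPM with Ad CMV 3xFlag-*Esrrg*. It was lower without overlap, at a log2 fold change of -0.29 ± 0.11 that missed the threshold (adjusted p = 0.051), and edgeR called it lower at -0.61 when libraries were scaled by size alone. *POLR3C* was at 48.0 ± 1.30 against 55.8 ± 7.37 CPM (SD, n = 3; 0.22 ± 0.11, adjusted p = 0.13). The third place in the trimer is taken either by *POLR3G*, which is typical of stem and tumour cells, or by *POLR3GL*, which is found more widely. *POLR3G* read 8.12, 10.2 and 8.97 CPM against 12.3, 10.2 and 10.5 CPM, and *POLR3GL* 15.8, 16.3 and 14.9 CPM against 13.9, 17.3 and 17.3 CPM. Both pairs of groups overlapped. The log2 ratio of *POLR3G* to *POLR3GL* counts was -0.96, -0.67 and -0.73 with Ad CMV GFP and -0.17, -0.77 and -0.72 with Ad CMV 3xFlag-*Esrrg*. The means of -0.79 ± 0.15 and -0.55 ± 0.33 (SD, n = 3) did not differ by more than the spread (difference 0.24, two-sided exact permutation test p = 0.5, with 0.1 the smallest p that 3 against 3 allows). Without replicate 2, which was higher than the rest, the difference was 0.05.

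*POLRMT* (ENSG00000099821, chromosome 19, 617221 to 633537, minus strand) read 18.4, 18.5 and 19.6 CPM with Ad CMV GFP and 41.7, 47.9 and 56.3 CPM with Ad CMV 3xFlag-*Esrrg*. The lowest library of the second group was above the highest of the first, with a log2 fold change of 1.37 ± 0.12 (adjusted p = 2.7e-05). It was called higher under all alternatives tried, from 1.26 to 1.57 when single libraries were left out. The value was smaller after correction for GC content and length (0.87, and 0.86 with the replicate block as well). It was 1.02 with the outside-gene share in the fit and 1.04 with library size only. Of its words, 40.6% occur at another place on the chromosomes. Other factors that read or copy mitochondrial DNA did not move as 1 group. Of 11 tested, 1 rose and 1 fell, with a median of 0.13, where 17.3% of all tested genes were called higher and 16.8% lower. The one that rose was *TWNK*, the mitochondrial DNA helicase, from 29.9, 32.7 and 30.7 CPM to 64.2, 76.9 and 77.9 CPM (1.23 ± 0.10, adjusted p = 2.2e-05). The one that fell was *MTERF2*, a mitochondrial termination factor family member, from 13.0, 13.0 and 11.9 CPM to 8.72, 8.56 and 7.84 CPM (-0.60 ± 0.11). This was just past the fold cutoff, and DESeq2 did not call it, at -0.50. Of the 13 mRNAs that *POLRMT* makes, 1 rose, *MT-ND3* of complex I, from 1552 ± 99.6 to 2595 ± 334 CPM (SD, n = 3; 0.74 ± 0.14), and 0 fell, with a median of -0.13. At an unadjusted p below 0.05 edgeR counted 1 of the 13 lower and DESeq2 0.

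The genes kept apart had log2 fold changes below 0, although with the outside-gene share in the fit *POLR2J2* was at 0.03 and *POLR2J3* (ENSG00000168255) at 0.30. Under the rule above, with TMM scaling, edgeR called none of their 4 identifiers in either direction, nor did DESeq2, and at an unadjusted p below 0.05 edgeR counted 3 lower and DESeq2 2. *POLR2J2* was at 12.1, 11.0 and 9.40 CPM against 9.84, 7.01 and 6.99 CPM (-0.45 ± 0.16, adjusted p = 0.042). *POLR2J3* was at -0.22 ± 0.18 under one identifier (ENSG00000168255) and at -0.36 ± 0.12 (adjusted p = 0.026) under the other (ENSG00000285437), and *POLR2M*, which encodes Gdown1, a protein that associates with Pol II, was at -0.28 ± 0.10 (adjusted p = 0.035). Of their words, 60.3 to 81.3% occur at another place on the chromosomes, so their counts and those of *POLR2J* are uncertain. With library size as the only scaling edgeR called *POLR2J2* (-0.75), *POLR2J3* (ENSG00000285437, -0.67) and *POLR2M* (-0.60) lower, and after correction for GC content and length *POLR2J2* (-0.67) and *POLR2J3* (ENSG00000168255, -0.60).

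Levels per transcript length covered a wide range and depended on the length used. On the scale of CPM per kb of the canonical transcript, *POLR1D* had a level of 119 in the Ad CMV GFP mean and 156 in the Ad CMV 3xFlag-*Esrrg* mean. Its canonical transcript has 693 bases and all its exons 12363, and per kb of all exons the level was 6.67 and 8.77. *POLR2L* was at 58.8 and 146 per kb of canonical transcript, and at 45.7 and 114 per kb of all exons, where it was highest. *POLR2G* was at 56.6 and 109 on the first scale and *POLR2B* at 47.4 and 66.6. Subunits of 1 enzyme had levels far apart, since *POLR2C* was at 29.7 and *POLR2I* at 5.57 with Ad CMV GFP. Among the lowest levels per kb of canonical transcript with Ad CMV GFP were those of *POLR3E* (0.093), *POLR1G* (1.76) and *POLR3G* (2.77).

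**Figure D3:**
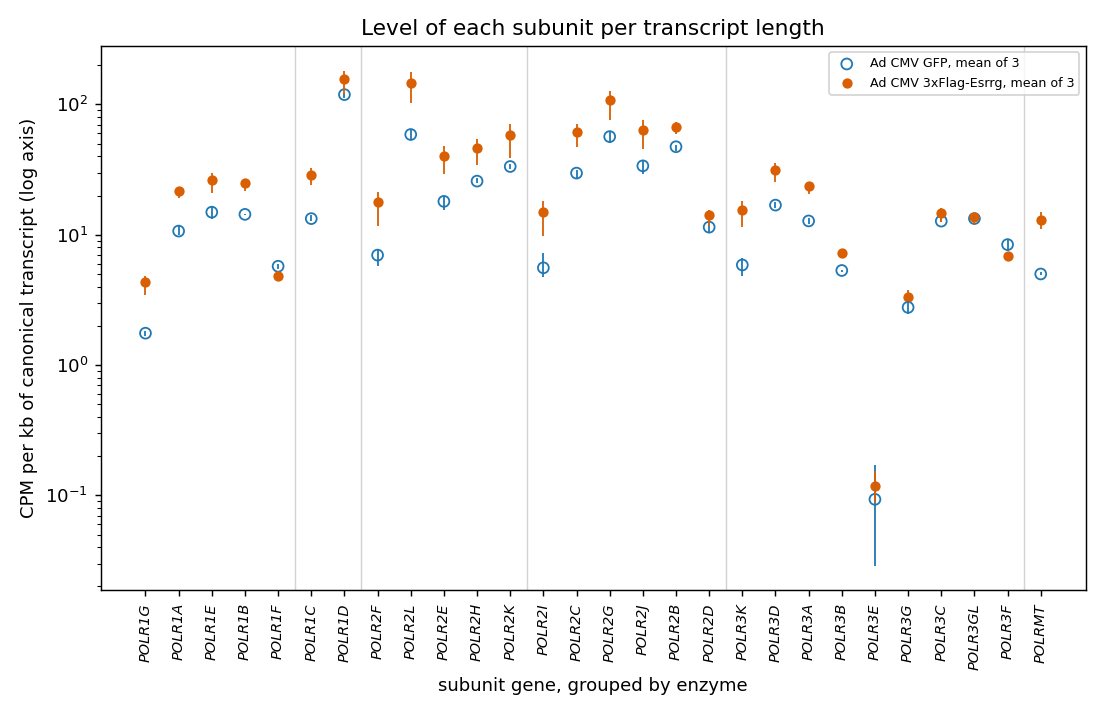
Level of 28 of the 29 tested subunits in CPM per kb of canonical transcript (log axis), with open points for the mean of the 3 Ad CMV GFP libraries, filled points for the 3 Ad CMV 3xFlag-*Esrrg* libraries and lines from the lowest to the highest library. *POLR1D* is at the top (119 and 156, but 6.67 and 8.77 per kb of all exons) and *POLR3E* stands apart at the bottom (0.093 with Ad CMV GFP).

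The subunits that rose had transcripts of higher GC content than those that did not. The median was 53.1% for the 19 that were called and 44.0% for the 10 that were not, against 48.6% for protein-coding genes. Over the 29 subunits, GC content and log2 fold change had a Pearson's r of 0.69 and a Spearman's rho of 0.72, and over 13746 protein-coding genes an r of 0.34 and a rho of 0.42. These are correlations across genes measured in the same libraries, and genes are not independent replicates. *POLR2K*, with 35.9% GC, rose, and *POLR3E*, with 55.2%, was not called. After correction for GC content and length by smooth curves, 20 subunits were called higher against 15.3% of all tested genes, 17 of them shared with the 19, and the median was 0.75.

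**Figure D4:**
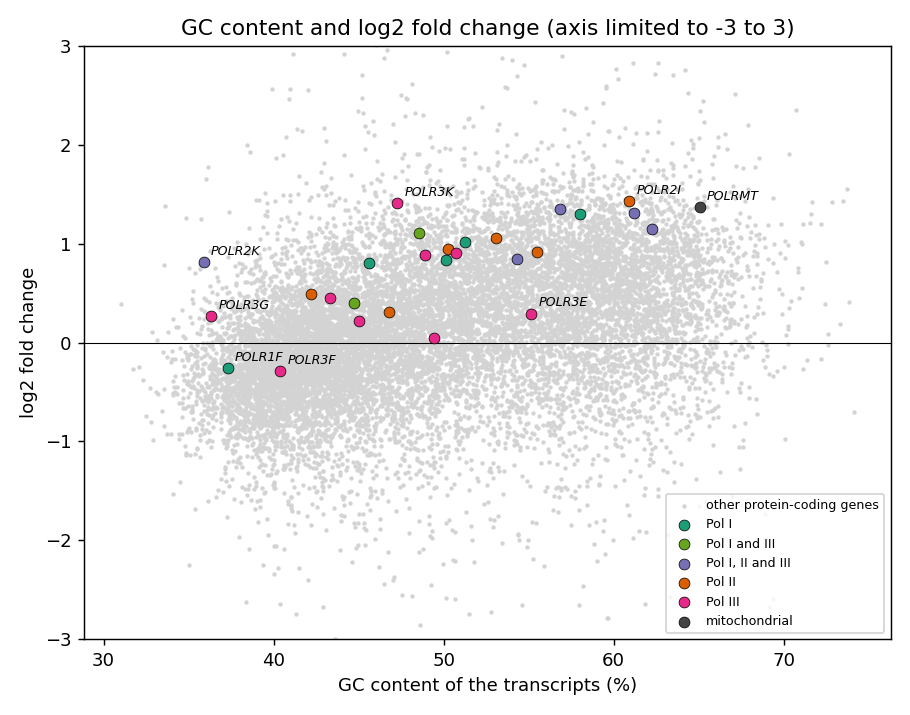
Log2 fold change (vertical axis, showing the central range only) against the GC content of the transcripts in percent (horizontal axis), for 13746 protein-coding genes in grey and 28 of the 29 subunits in colour by enzyme. *POLR1F* and *POLR3F* sit low at the left and *POLRMT* high at the right, with *POLR2K* (35.9% GC, log2 fold change 0.82) above the other subunits of low GC content.

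Factors that work with each polymerase were read from lists written with earlier results known. Of 7 Pol I factors, which include *UBTF*, *RRN3* and the termination factor *TTF1*, 0 were called by edgeR or DESeq2. At an unadjusted p below 0.05 edgeR counted 2 higher and 1 lower and DESeq2 3 higher and 0 lower. The median log2 fold change of the 7 was -0.12. *RRN3* had 28 to 33 counts per library, which limits what its lack of a call can show. Of 16 tested general transcription factors of Pol II, 3 rose and the median was 0.24, where the rule called 17.3% of all tested genes and 25.9% of protein-coding genes higher, so that the share was near the background. *ERCC2*, a helicase of TFIIH, was the highest, at 24.6, 26.9 and 24.7 CPM against 60.7, 81.5 and 87.3 CPM (1.59 ± 0.13), and *GTF2F1* of TFIIF the lowest of those called (0.87 ± 0.14). *GTF2H1* and *GTF2H4* of TFIIH did not exceed 3 counts in any library. Of 14 tested subunits of TFIID, 1 rose, *TAF6* (0.63 ± 0.12), with a median of 0.11, a share under that background, and *TAF9* was at 3 counts or fewer in each library. Among 22 factors of Pol II pausing and elongation, 8 rose and the median was 0.25, with *CDK9*, the kinase of P-TEFb, at 47.3, 56.3 and 53.6 CPM against 88.1, 112 and 124 CPM (1.05 ± 0.13), and *TCEA2*, a transcript cleavage factor, at 0.60 ± 0.16. *TCEA2* was not called, at -0.041, with the outside-gene share in the fit, and *NELFE* was at 3 counts or fewer in each library.

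Pol III factors and assembly factors had larger medians. The rule called 17.3% of all tested genes and 25.9% of protein-coding genes higher. With the outside-gene share in the fit, 7.24% of all tested genes were called higher. Of 16 tested Pol III factors, 10 rose and the median was 0.72, from *SNAPC2* of the snRNA activating complex (0.63 ± 0.14) to *GTF3A*, which binds the gene of the smallest ribosomal RNA, at 47.0, 55.7 and 52.2 CPM against 81.3, 129 and 118 CPM (1.09 ± 0.16). The list includes *CRCP* (0.69), which encodes a Pol III subunit that the symbol rule leaves out, and the Pol III repressor *MAF1* (1.07). Both were called higher. *BDP1* of TFIIIB was listed at 3 counts or fewer in every library. With the outside-gene share in the fit 1 of the 16 was called. Of 12 tested assembly factors, which build polymerases in the cytoplasm, 8 rose and the median was 0.78. The chaperone ATPase *RUVBL2* rose most, from 63.5, 86.3 and 76.2 CPM to 175, 249 and 264 CPM (1.61 ± 0.17, adjusted p = 6.2e-05), and the GTPase *GPN1* least among those called (0.59 ± 0.14). *PFDN6* was at 3 counts or fewer in each library. With the same covariate 1 of the 12 was called. Scaled by library size alone, 2 of the 16 Pol III factors, 5 of the 12 assembly factors and 2 of the 22 pausing and elongation factors were called higher, against 8.98% of all tested genes, and after the GC and length correction 4, 6 and 2, against 15.3%. Of 14 transcripts made by Pol III, 6 were tested and 5 rose, with a median of 1.45, while *RMRP*, *RN7SK*, *RN7SL2*, *RPPH1* and *VTRNA2-1* were listed at 3 counts or fewer in every library. The vault RNA *VTRNA1-3* rose from 0.887, 1.33 and 1.03 CPM to 3.07, 6.95 and 5.90 CPM (2.30 ± 0.31) and the Y RNA *RNY1* from 6.42, 5.59 and 5.01 CPM to 6.43, 10.7 and 11.6 CPM (0.76 ± 0.21). With the outside-gene share in the fit *RNY1* was at -0.056 and not called. *RN7SL1* of the signal recognition particle, chosen after its values were seen, held most of the counts, at 4971, 6255 and 6827 CPM against 9966, 38467 and 34921 CPM. Replicate 2 was again the lowest of the Ad CMV 3xFlag-*Esrrg* libraries, and such short RNAs have many near-identical copies, so their counts are uncertain.

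**Figure D5:**
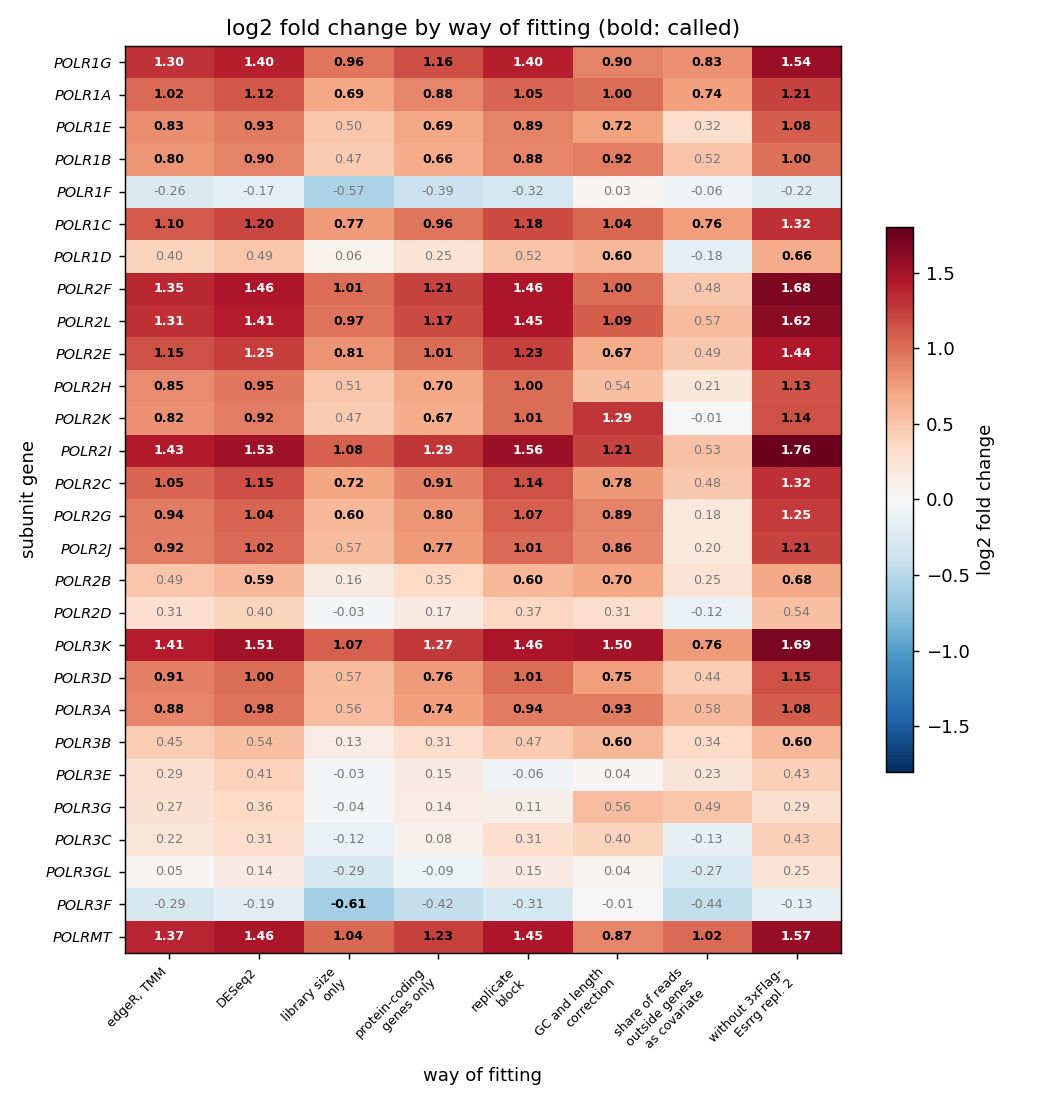
Log2 fold change of 28 of the 29 tested subunits (rows) under 8 ways of fitting (columns), in colour and as numbers, with bold numbers where the subunit was called. *POLR1A*, *POLR1G*, *POLR1C*, *POLR3K* and *POLRMT* are bold in every column, while the column for the outside-gene share as a covariate has no other bold entry.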

How the data were processed

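RNA sequencing of 6 SH-SY5Y libraries (3 per virus) was analysed, with groups and replicate numbers from the sample labels. The deposited table holds raw counts per gene and 5 summary entries. Per the labels and the submitters' processing notes, the authors made directional libraries, trimmed reads with Trim Galore 0.6.7, aligned them to GRCh38 with STAR 2.7.9a and counted them with HTSeq 0.11.3; the notes also name CASAVA and DESeq2. The strand setting and annotation release are not given in the sources used here. Identifiers were matched to GENCODE release 44, and 6641 without a match held 0.153% of counts. Summary entries stayed out of library sizes and tests.

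Counts were tested in R 4.3.3 with edgeR 4.0.16 (filterByExpr, TMM, quasi-likelihood test), called at a Benjamini-Hochberg adjusted p below 0.05 over all tested genes and at least 1.5-fold. SE is that of the log2 fold change. CPM use TMM factors. Tested on simulated counts for this comparison, edgeR recovered 198 of 200 changed genes with 8 false calls among 24500 genes. The simulated counts had the same dispersion for every gene and far fewer changed genes than the 8351 called here. They thus do not give error rates for these data. Alternatives were DESeq2 1.42.0, RLE factors, library size only, other filters and fold cutoffs, protein-coding genes only, a replicate block, GC and length curves (mgcv 1.9.3), the share of reads assigned to no gene as a covariate, and each library left out. Words of 31 bases of exons were sought in 261 alternate contigs and elsewhere on the chromosomes; promoters came from RefSeq.

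Members and lists were chosen with earlier results of these data known. Named genes are all members and *ESRRG*. From each list, the called genes with the largest and smallest change among those with a mean of at least 50 counts were named. Genes listed at 3 counts or fewer, *UBTF*, *RRN3*, *TTF1*, *CRCP*, *MAF1* and *RN7SL1* were named in addition. The values of 1 member are not reported here; it stays in the counts and medians. Nothing in the labels says that replicates came from separate cultures, so p-values measure the spread between these samples, which may be technical.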

Additional observations from a re-analysis of the deposited data

Results flagged for a closer look

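Some entries of the count table outside the gene counts, unlike reads assigned to no gene, had higher shares with Ad CMV 3xFlag-*Esrrg* than in any Ad CMV GFP library. Reads that HTSeq assigned to more than 1 gene made up 4.55 to 4.87% of entries with Ad CMV GFP and 5.69, 9.84 and 9.79% in replicates 2, 3 and 4 with Ad CMV 3xFlag-*Esrrg*. Reads aligned to several places made up 7.16 to 7.41% against 9.33, 12.7 and 13.0%. They were singled out because they lie outside the main measurement and above the control libraries. Reads of both kinds enter no subunit's count, and their part in the differences was not tested.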

How the results depend on the processing

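Of the values recomputed for each tested subunit under each alternative, 480 kept their direction and their side of the threshold, 15 passed it in addition, 38 no longer passed and 17 changed sign. Genes called in either direction numbered 3934 at a 2-fold cutoff, 3594 in a test against a 1.5-fold threshold, 5282 among protein-coding genes only and 3096 with the share of reads assigned to no gene in the fit. Called genes were higher in 50.7% of cases, in 62.7% with DESeq2, in 61.4% in the test against 1.5-fold and in 22.5% with library size only. Subunits called higher numbered 12 with library size only, where 1 was lower, 10 at a 2-fold cutoff and 5 with the share in the fit. The median was 0.56 in the first and 0.44 in the last of these. Leaving out single libraries gave medians from 0.78 to 1.14 (without Ad CMV 3xFlag-*Esrrg* replicates 4 and 2) and 19 to 22 subunits higher.

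Signs changed in these cases. With library size only, *POLR2D* was at -0.027, *POLR3C* at -0.12, *POLR3E* at -0.030, *POLR3G* at -0.040 and *POLR3GL* at -0.29. With the share in the fit, *POLR1D* was at -0.18, *POLR2K* at -0.010, *POLR2D* at -0.12, *POLR3C* at -0.13, *POLR3GL* at -0.27, *POLR2J2* at 0.025, *POLR2J3* at 0.30, *TCEA2* at -0.041 and *RNY1* at -0.056. With protein-coding genes only *POLR3GL* was at -0.093. *POLR1F* was at 0.029 once corrected for GC and length, and at 0.045 with the replicate block as well, where *POLR3F* was at 0.0092 and *POLR3E* at -0.37. *POLR3E* ranged from -0.10 to 1.09 when single libraries were left out. The cause was not tested.

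The deviations of same-numbered libraries from their group means had an r of 0.08 for replicate 3 and -0.0001 for replicate 4. Whether same-numbered libraries shared a batch cannot be told from these values. With the replicate number as a block, which leaves 1 residual degree of freedom, 20 subunits were called higher and the median was 1.00, 21 with GC and length correction, and *POLR3E* was at -0.057. The counts of *POLR2A* and *POLR3E* were too low to show a change, and the cause of their low counts was not tested.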
